A study of Mus musculus with 7 samples.

Results

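The 6 genes described here, Meis1, Sox11, Sox4, Bcl2, Ntrk2 and Efnb3, are among the transcripts that other work has described as targets of the microRNAs miR-204 and miR-211. They were followed in retinal pigment epithelium (RPE), the pigmented layer behind the photoreceptors. It came from control mice and from mice labelled as deficient in the microRNA-processing enzyme Dicer1. Members were all probe sets whose platform annotation gives exactly 1 gene symbol and that symbol among the 6. This gave 71 of the 65535 probe sets in the table and 6 of 5017 genes. Meis1 (gene ID 17268, chromosome 11) had 17 probe sets, Sox11 (20666, chromosome 12) had 6, Sox4 (20677, chromosome 13) had 4, Bcl2 (12043, chromosome 1) had 9, Ntrk2 (18212, chromosome 13) had 27 and Efnb3 (13643, chromosome 11) had 8. A probe set covers a stretch of a gene, often a single exon, and its value is a log2 signal, on which a step of 1 is a doubling.

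The series held 7 Affymetrix arrays of RPE dissected from mouse eyes at postnatal day 5, 4 from controls and 3 from Dicer1-deficient animals. The deficient genotype was Dicer1 loxP/loxP with Dct-Cre, a Cre recombinase under the promoter of dopachrome tautomerase, which is active in pigment cells including melanocytes. The pups came from matings of Dicer1 flox/+ Dct-cre with Dicer1 flox/flox mice, so control pups of such litters would carry at least 1 floxed allele, but the labels do not give their genotype or say whether they carried Cre. The labels do not say whether arrays came from separate animals or pools, so p-values reflect the spread among these 7 samples alone, part of which may be technical.

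MicroRNAs are short RNAs, cut from hairpin precursors by Dicer, that pair through their seed (bases 2 to 8) with sites mostly in the 3′ untranslated regions of messenger RNAs and lower the stability or translation of those messages. The pair miR-204 and miR-211 are known for their abundance in RPE, where they have been tied to the differentiated, pigmented state of the epithelium. Their precursors lie within introns of Trpm3 and Trpm1, 2 ion channel genes, and miR-211 is transcribed with Trpm1 under the pigment cell factor Mitf. The sequences are shown because they explain why the same genes are described as targets of both, with the seed in capitals:

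mmu-miR-204-5p: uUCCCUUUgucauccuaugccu

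mmu-miR-211-5p: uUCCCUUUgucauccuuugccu

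Both sequences are from RefSeq, build GRCm38.p6, where miR-204-5p lies at chr19:22750610-22750631 on the plus strand, inside the span of Trpm3, and miR-211-5p at chr7:64205831-64205852 on the plus strand, inside the span of Trpm1. They are 22 bases long, share the seed UCCCUUU and differ at 1 base outside it, A17U counted from the 5′ end of miR-204-5p. Of 1738 mature mouse microRNAs listed there, 3 carried this seed, the third being miR-7670-3p. A target message pairs with the seed through the letters AAAGGGA. Target sites were not searched for, since no transcript sequence was used here, and the levels of the microRNAs and of Trpm1, Trpm3 and Mitf were not analysed here.

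Control 4 differed from controls 1 to 3, which touches several results below. Over all probe sets, correlations were 0.986 to 0.988 among controls 1 to 3, 0.980 to 0.984 among the deficient arrays and 0.942 to 0.951 between control 4 and the others. The median signal was 6.05 in control 4 and 6.22 to 6.26 in the other arrays, and the part of this gap in its low values at Sox11 and Sox4 was not tested. The brightest probe set of Dicer1 itself (chromosome 12) read 10.62 ± 0.26 (SD, n = 4) in controls against 10.57 ± 0.13 (SD, n = 3) in deficient RPE. Nothing says whether it lies in the floxed part, so the loss of Dicer1 was not shown by these values. With each gene taken at its brightest probe set and p-values from limma adjusted by Benjamini-Hochberg across the table, 117 genes (2.33%) differed at an adjusted p of 0.05, 71 higher (1.42%) and 46 lower (0.917%) in deficient RPE. RPE markers were present in every array, 6 of 17 listed being measured, although Rpe65, Rlbp1 and Best1 were not analysed here.

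Of the 6 genes, 3 had a positive log2 difference at the brightest probe set, as did 48.1% of all genes. These were the transcription factor genes Meis1, Sox11 and Sox4, while Bcl2, Ntrk2 and Efnb3 read lower on average in deficient RPE. The sign of Ntrk2 turned when deficient array 1 was left out. The 95% intervals (limma) of Sox4 (-0.0039 to 0.52), Bcl2 (-0.46 to 0.21) and Ntrk2 (-0.42 to 0.24) included 0. Those of Meis1, Sox11 and Efnb3 did not. At the brightest probe sets 0 of the 6 passed limma over all genes (adjusted p of 0.05, passed by 2.33% of genes), while 3 of 6 had an unadjusted p under 0.05, as did 14.5% of all genes. The groups did not overlap for 2 of the 6, Meis1 and Sox11, and for 16.3% of all genes. The median log2 difference of the 6 was 0.08, against -0.01 over all genes. Their mean log2 signal was 9.23 in control 4, 9.65 to 9.70 in controls 1 to 3 and 9.70 to 9.82 in deficient arrays, so the groups were only just apart on this mean. Lists that share members with these 6 were placed likewise. The 15 measured described targets were at 9.07 to 9.23 in controls and 9.26 to 9.39 in deficient arrays. The 7 measured SOX genes were at 8.24 to 8.54 and 8.55 to 8.63. These placements are not separate results, since the shared genes enter these means too, and means without them were not computed. Among the SOX genes, Sox11 had 1.07 and Sox4 0.26, and the others lay between -0.16 and 0.24.

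**Figure D1:**
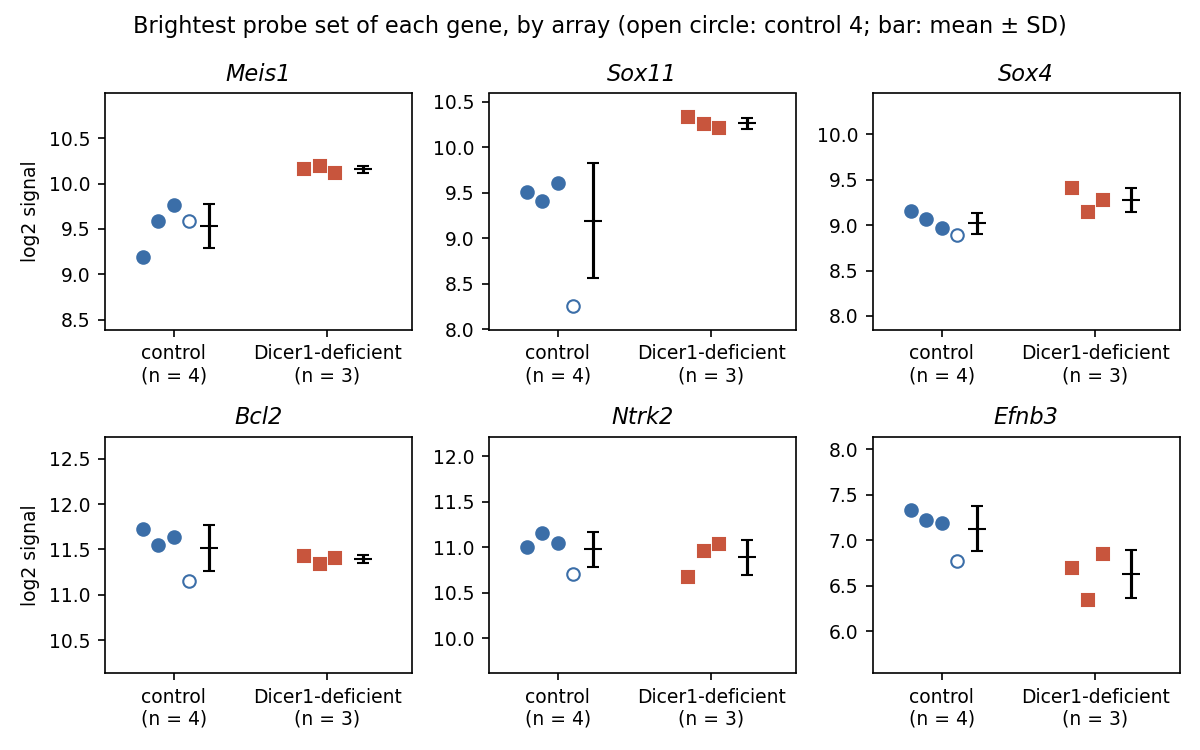
Log2 signal (y axis) of the brightest probe set of each of the 6 genes in every array, with control arrays as circles (control 4 open), Dicer1-deficient arrays as squares and bars for the mean ± SD; every panel spans the same range of 2.6 log2 units. The deficient arrays of Meis1 and Sox11 all lie above all controls, and control 4 is the lowest array for Sox11, Sox4 and Bcl2.

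Meis1 encodes a homeodomain protein that works with Pbx partners and keeps eye progenitors dividing early in development. Its brightest probe set, 10384520, read 9.19, 9.59, 9.76 and 9.59 in controls 1 to 4 and 10.16, 10.19 and 10.12 in deficient arrays 1 to 3. Every deficient array was above every control, and the deficient arrays lay within 0.1 of each other. The means were 9.53 ± 0.24 (SD, n = 4) and 10.16 ± 0.035 (SD, n = 3), a log2 difference of 0.63 (SE 0.14, 95% interval 0.30 to 0.95, limma adjusted p = 0.0735), or 1.54-fold. Control 4 was inside the range of the other controls here, and without it the difference was 0.64 (adjusted p = 0.053).

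Averaging the probe sets of each gene put Meis1 past the test. The mean of its 17 probe sets read 6.43, 6.55, 6.87 and 6.28 in controls and 7.11, 7.07 and 7.02 in deficient arrays, again with no overlap. The share of all genes without overlap was not counted on this summary. On this summary Meis1 rose by 0.54 (log2, SE 0.13, 95% interval 0.24 to 0.83, limma adjusted p = 0.0436), where 5.86% of all genes passed (3.03% higher). Without control 4 the mean rose by 0.45 (limma adjusted p = 0.0241), where 17.0% of genes passed. The call on the mean thus stood with and without the array that stands apart, but no other array was left out on this summary. At the brightest probe set, leaving out 1 array at a time gave Meis1 a limma adjusted p of 0.053 to 0.242. The median of the probe sets, taken within each array, gave 1.10 (limma adjusted p = 0.0109), where 176 of 5017 genes passed. That median can fall on different probe sets in different arrays, and the median of the 17 differences was 0.44.

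Sox11 encodes an HMG-box factor of the SoxC group, active in newborn neurons and other immature cells and needed for normal closure of the eye. Its brightest probe set, 10399728, read 9.50, 9.41, 9.60 and 8.26 in controls and 10.33, 10.26 and 10.21 in deficient arrays. The groups did not overlap, and control 4 lay more than 1 log2 unit below the other controls. The means were 9.19 ± 0.63 (SD, n = 4) and 10.27 ± 0.061 (SD, n = 3), a log2 difference of 1.07 (SE 0.31, 95% interval 0.35 to 1.79, limma adjusted p = 0.152), or 2.1-fold. Without control 4 the difference was smaller and passed limma over all genes, at 0.76 (SE 0.08, 95% interval 0.56 to 0.96, adjusted p = 0.0052), where 5.18% of all genes passed and 3.17% passed as higher. On the mean of its 6 probe sets Sox11 had 0.68 (limma adjusted p = 0.0688). Once control 4 was left out this was 0.49 and passed (0.0049), where 17.0% of genes passed and 6.74% passed as higher.

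Sox4, the other SoxC gene measured, has overlapping roles with Sox11 in neuronal and mesenchymal development. Its brightest probe set, 10408454, read 9.16, 9.07, 8.97 and 8.89 in controls and 9.41, 9.14 and 9.28 in deficient arrays. Control 1 was just above deficient array 2, so the groups overlapped. The log2 difference was 0.26 (SE 0.11, 95% interval -0.0039 to 0.52, limma adjusted p = 0.352), and leaving out control 4 gave 0.21 (adjusted p = 0.26). The mean of its 4 probe sets had 0.37 (95% interval 0.06 to 0.69, limma adjusted p = 0.19). On it the 3 deficient arrays (7.70, 7.46 and 7.50) lay above the controls (7.37, 7.29, 7.26 and 6.80). The share of all genes so placed was not counted on means.

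Bcl2 encodes a mitochondrial inhibitor of apoptosis that pigment cells depend on for survival. Its brightest probe set, 10357048, read 11.72, 11.55, 11.63 and 11.16 in controls and 11.43, 11.34 and 11.41 in deficient arrays. Controls 1 to 3 were above all deficient arrays and control 4 was below them. The log2 difference was -0.12 (SE 0.15, 95% interval -0.46 to 0.21, limma adjusted p = 0.835), and leaving out control 4 gave -0.24 (95% interval -0.43 to -0.05, adjusted p = 0.136). The median of its probe sets gave -0.48 without passing. The mean of its 9 probe sets had -0.21 (95% interval -0.40 to -0.02, limma adjusted p = 0.228) with no overlap. How many of all genes had no overlap on means was not counted. Leaving out control 4, the mean of Bcl2 fell by 0.25 in log2 signal (limma adjusted p = 0.0174), where 17.0% of genes passed and 10.3% passed as lower.

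Ntrk2 encodes TrkB, the receptor of brain-derived neurotrophic factor, made both as a full-length tyrosine kinase and as truncated forms without the kinase. Its brightest probe set, 10405640, read 11.00, 11.16, 11.05 and 10.71 in controls and 10.67, 10.96 and 11.03 in deficient arrays, which overlapped throughout. The log2 difference was -0.09 (SE 0.14, 95% interval -0.42 to 0.24, limma adjusted p = 0.9). The mean of its 27 probe sets had -0.15 (95% interval -0.43 to 0.13, adjusted p = 0.677). The sign of the brightest probe set turned, to 0.02, without deficient array 1. No direction can thus be given for Ntrk2.

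Efnb3 encodes ephrin-B3, a membrane-bound ligand of Eph receptors known for steering axons at the midline. Its brightest probe set, 10387489, read 7.33, 7.22, 7.19 and 6.77 in controls and 6.69, 6.34 and 6.85 in deficient arrays. Controls 1 to 3 were above every deficient array and control 4 was below deficient array 3. The log2 difference was -0.50 (SE 0.17, 95% interval -0.91 to -0.10, limma adjusted p = 0.234), or 1.41-fold lower, and leaving out control 4 gave -0.62 (adjusted p = 0.0515). The mean of its 8 probe sets had -0.26 (limma adjusted p = 0.149). Leaving out control 4, that mean fell by 0.29 in log2 signal (limma adjusted p = 0.033), where 17.0% of genes passed and 10.3% passed as lower. On the mean over all arrays the controls read 5.32 to 5.48 and the deficient arrays 5.07 to 5.29. Except for 10387489, the probe sets of Efnb3 had both group means below the median of all values (6.22), and none of those was shown to be above background.

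**Figure D2:**
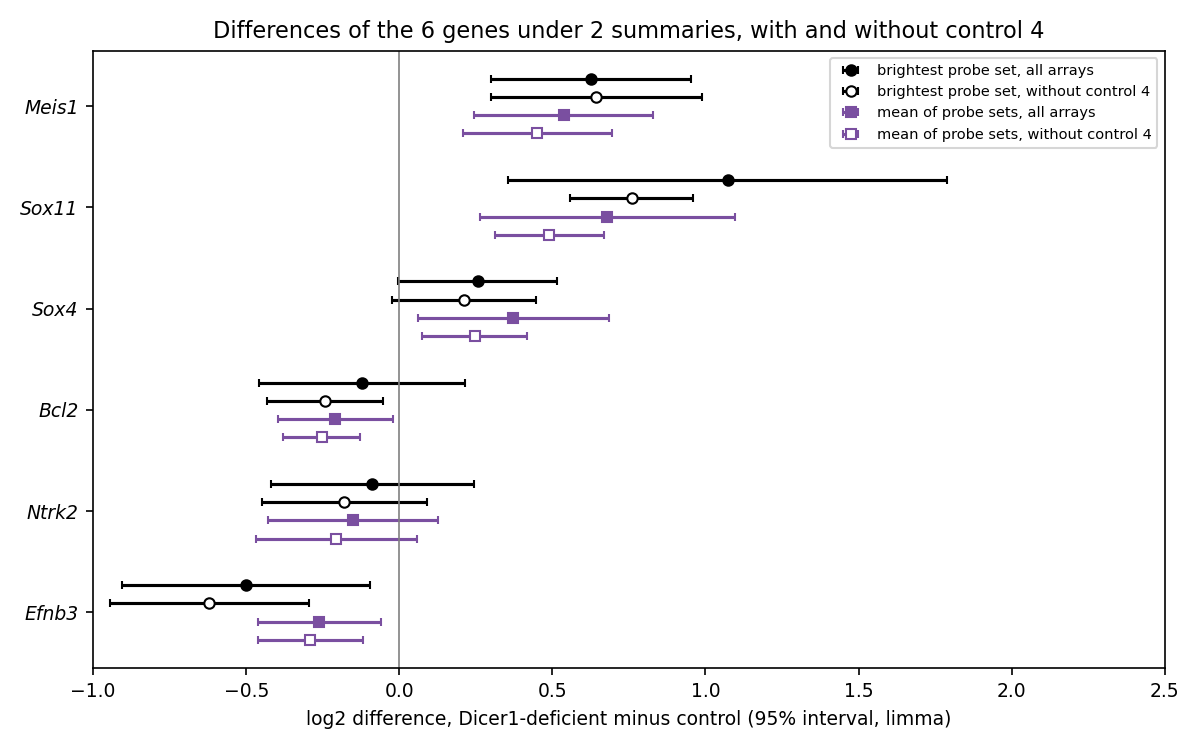
Log2 difference (x axis, Dicer1-deficient minus control, with limma's 95% interval) of each gene from its brightest probe set (black circles) and from the mean of its probe sets (purple squares), filled for all 7 arrays and open without control 4. The 3 transcription factor genes have positive values and the other 3 negative ones in all of these summaries, and the interval of Sox11 narrows most without control 4.

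Probe sets of Meis1, Sox11 and Sox4 lay almost all on the same side of zero. Of the 17 of Meis1, 16 were higher in deficient RPE, with a median log2 difference of 0.44 and a range from -0.12 to 1.35. All 6 of Sox11 (0.36 to 1.07, median 0.65) and all 4 of Sox4 (0.26 to 0.51, median 0.36) were higher, while 50.6% of all probe sets were. Probe sets of a gene share the same arrays and transcripts and are not replicates. The share over all probe sets is thus no measure of agreement within a gene. The share of genes whose probe sets all lie on the same side was not counted. Control 4 was the lowest array at every probe set of Sox11 and Sox4, as described below. The groups did not overlap at 8 probe sets of Meis1, 5 of Sox11 and 2 of Sox4, each time with deficient arrays higher, and 7.25% of all probe sets were so placed.

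Probe sets of the other 3 genes lay mostly below zero. Of 9 of Bcl2, 7 were lower (median -0.20, range -0.51 to 0.17), of 27 of Ntrk2, 23 were lower (median -0.17, range -0.60 to 0.33), and of 8 of Efnb3, 7 were lower (median -0.27, range -0.53 to 0.07). The groups did not overlap at 2 probe sets of Bcl2, at 1 of Efnb3 and at 0 of Ntrk2, with the deficient arrays lower, as in 6.10% of all probe sets.

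**Figure D3:**
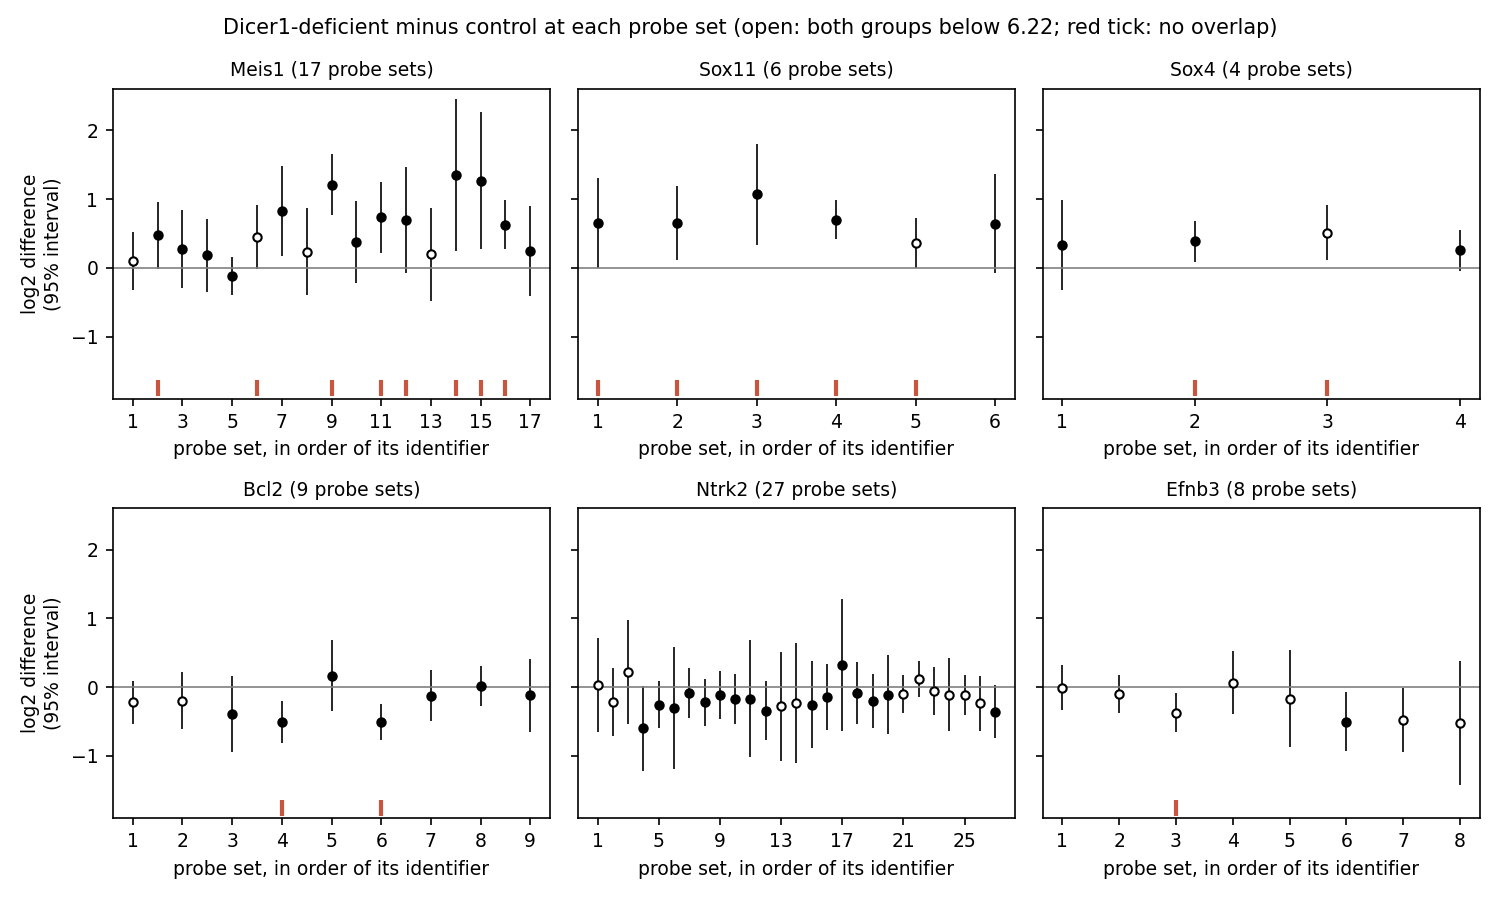
Log2 difference (y axis, Dicer1-deficient minus control, with limma's 95% interval) at each of the 71 probe sets, in order of identifier within a gene, which is not stated to be their order along the transcript; open circles have both group means below 6.22 and red ticks mark probe sets whose groups do not overlap. Meis1, Sox11 and Sox4 lie above zero at nearly every probe set, and Ntrk2 has no red tick.

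In the fit of all 65535 probe sets, 1 of the 71 passed (0.856% of all did, 0.533% higher), and 18 of 71 had an unadjusted p under 0.05 (11.3% of all did). The one that passed was Meis1 probe set 10384513. It read 6.06, 6.01, 6.61 and 6.01 in controls and 7.51, 7.50 and 7.14 in deficient arrays, so that every deficient array was above every control. It rose by 1.21 (log2, SE 0.19, 95% interval 0.77 to 1.66, limma adjusted p = 0.0378), or 2.31-fold, from a control mean of 6.17 just below the median of all values. Without control 4 it rose by 1.16 (limma adjusted p = 0.041). It did not pass when control 1, control 2 or any of the deficient arrays was left out.

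Of the other Meis1 probe sets, 10384518 had the largest difference and the widest spread. It read 6.68, 6.87, 7.52 and 5.22 in controls and 8.06, 7.99 and 7.71 in deficient arrays, a log2 difference of 1.35 (SE 0.48, limma adjusted p = 0.331) that was 0.90 without control 4. At 10384508 control 4 was instead the highest of the 7 arrays, at 9.49 against 8.60 to 8.88 in the other controls and 8.96 to 9.17 in deficient arrays. Control 4 was thus low at some probe sets of Meis1 and high at others.

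Sox11 probe set 10399729 had the smallest p of that gene over all 7 arrays. It read 5.84, 5.78, 5.98 and 5.76 in controls and 6.65, 6.41 and 6.55 in deficient arrays, and control 4 was close to the other controls. The log2 difference was 0.70 (SE 0.12, 95% interval 0.42 to 0.98, limma adjusted p = 0.0536), from a control signal below the median of all values that was not shown to be above background. Without control 4 it passed over all probe sets at 0.67 (limma adjusted p = 0.042), as did 10399728 (adjusted p = 0.023), when 1.86% of all probe sets passed.

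Control 4 was the lowest of the 7 arrays at all 6 probe sets of Sox11 and all 4 of Sox4, which was so for 30.8% of all probe sets. It was the lowest at 6 of 17 probe sets of Meis1, 4 of 9 of Bcl2, 5 of 27 of Ntrk2 and 0 of 8 of Efnb3. Without it, all 6 probe sets of Sox11 and all 4 of Sox4 were still higher in deficient RPE, with smaller medians of 0.42 and 0.26. At 10408452 of Sox4 the deficient arrays (6.57, 6.42 and 6.49) lay above the controls (6.28, 6.12, 6.14 and 5.90), and at 10408453 likewise (6.05, 6.01 and 5.97 against 5.76, 5.60, 5.56 and 5.08). Neither passed limma over all probe sets (adjusted p = 0.302 and 0.304).

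**Figure D4:**
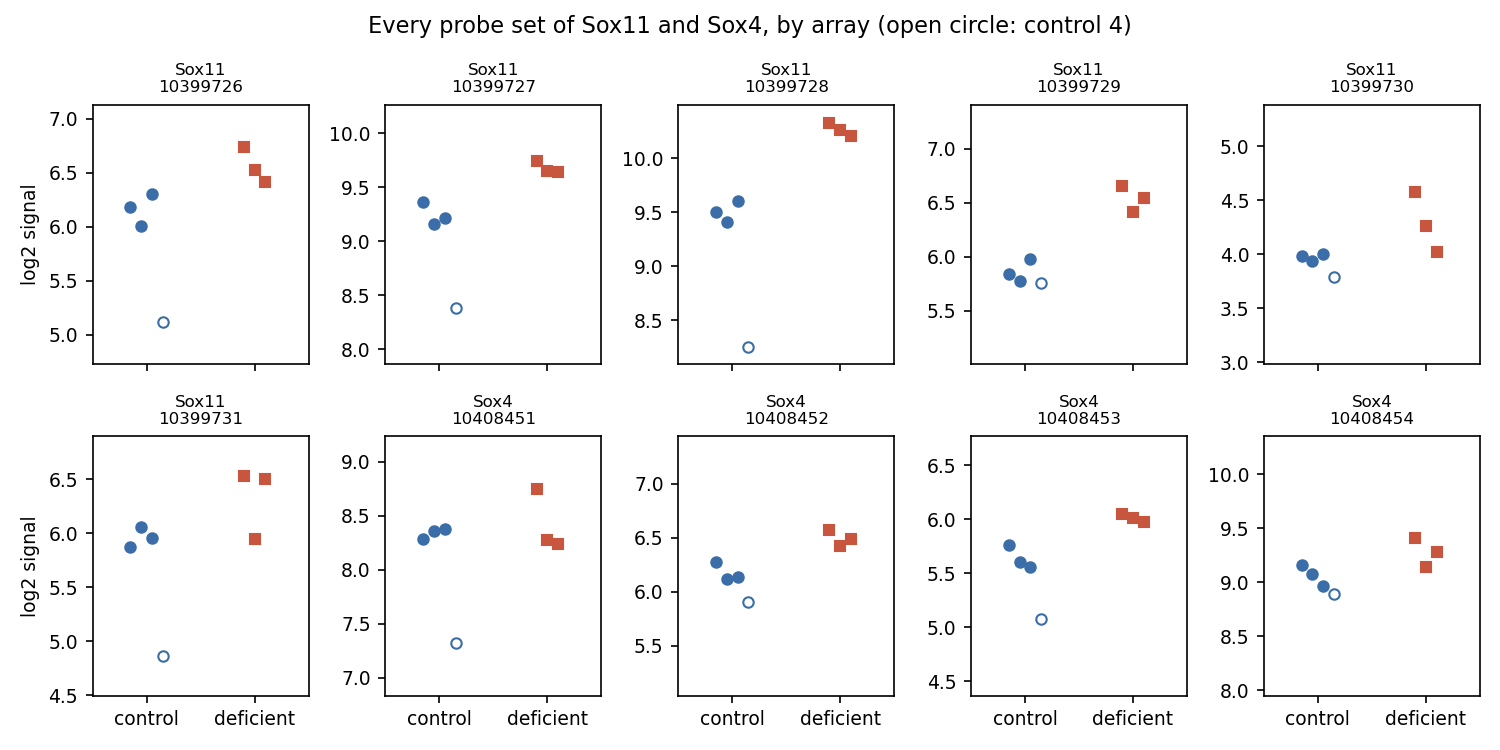
Log2 signal (y axis) of each of the 6 probe sets of Sox11 and 4 of Sox4 by array, with controls as circles (control 4 open) and Dicer1-deficient arrays as squares; every panel spans 2.4 log2 units. Control 4 is the lowest array in every panel, and the deficient arrays lie above controls 1 to 3 at 5 probe sets of Sox11 and 2 of Sox4.

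Bcl2 was the one gene of the 6 whose probe sets were called uneven when control 4 was left out. Probe sets 10357045 and 10357047 had non-overlapping groups. The first read 7.43, 7.52, 7.30 and 7.22 in controls and 6.84, 7.00 and 6.74 in deficient arrays, a log2 difference of -0.51 (SE 0.13, limma adjusted p = 0.172). The second read 9.23, 9.06, 9.19 and 9.21 against 8.72, 8.70 and 8.58, a difference of -0.50 (SE 0.11, adjusted p = 0.118). Neither passed over all probe sets. Beside them 10357049 had 0.02 and 10357046 had 0.17.

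Whether the difference was the same along a gene was tested with limma's diffSplice F test. It called 0 of the 6 genes, with 1 of 6, Meis1, under an unadjusted p of 0.05 (adjusted p = 0.555), where 1.36% of 4470 genes with at least 2 probe sets passed and 6.49% had an unadjusted p under 0.05. Without control 4 it called Bcl2 (adjusted p = 0.000566), where 6.80% of genes passed. That test assumes an equal spread at all probe sets of a gene and made too many false calls on simulated data without it. In a second limma test, added after the data were seen, each probe set was set against the mean of its gene, array by array, and 0 of the 71 passed with or without control 4 (0.0361% and 0.0799% of all probe sets so tested did). The probe sets of Bcl2 were thus not shown to differ from each other by both tests.

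Ntrk2 had a run of probe sets without clear signal in either group, chosen here after its values were seen. The 6 probe sets from 10405655 to 10405660 had control means of 3.24 to 4.83 and deficient means of 3.26 to 4.72, around or below the lower quartile of all values (4.63). None was shown to be above background, so their differences (-0.23 to 0.12) say little about the transcript. Leaving these aside, the largest negative difference of the gene was at 10405637, which read 8.10, 7.93, 7.87 and 7.15 in controls and 6.72, 7.34 and 7.43 in deficient arrays (-0.60, SE 0.27, limma adjusted p = 0.465). Which exons these probe sets read, and hence which TrkB form, is not given in the sources used here.

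Of the other genes described as targets of miR-204 or miR-211, Jarid2 and Nuak1 had groups that did not overlap, on opposite sides of zero. Groups did not overlap for 16.3% of all genes. From a list of 43 further genes drawn from general knowledge, 9 were measured, and 0 passed limma over all genes (2.33% of all genes did), while 3 had an unadjusted p under 0.05 (14.5% of all genes did). Their median log2 difference was 0.08, with 7 of 9 positive, against -0.01 over all genes, of which 48.1% were positive. Sirt1, a deacetylase gene, read 9.34, 9.35, 9.41 and 9.84 in controls and 9.74, 9.90 and 10.14 in deficient arrays (log2 difference 0.44, limma adjusted p = 0.256), and without control 4, the highest control, it rose by 0.56 (adjusted p = 0.0402, where 5.18% of genes passed). Jarid2, which encodes a subunit of a Polycomb repressive complex, had 0.47 (adjusted p = 0.245), and the kinase gene Nuak1 had -0.41 (adjusted p = 0.118). On the mean of probe sets Nuak1 fell by 0.47 in log2 signal (limma adjusted p = 0.0224), where 2.83% of all genes passed as lower. Ddit3, a stress response factor gene, had 0.48 (adjusted p = 0.477). Foxc1, Esr1, Igfbp5, Hmga2 and Per2 lay between -0.11 and 0.10.

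**Figure D5:**
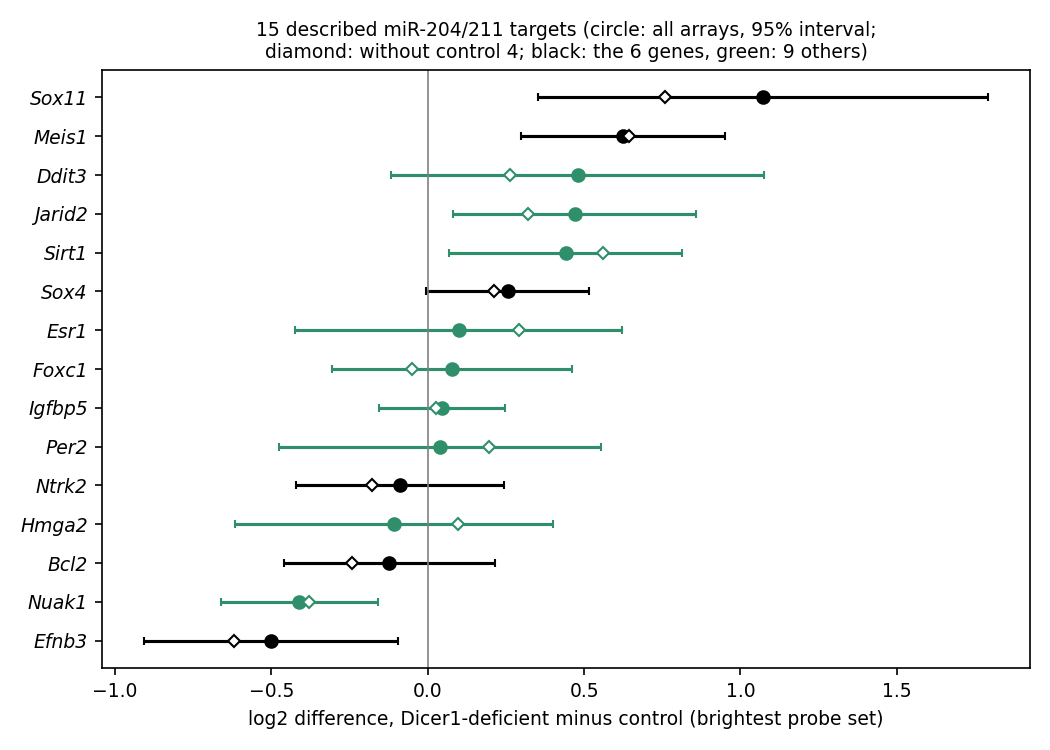
Log2 difference (x axis, Dicer1-deficient minus control, brightest probe set, with limma's 95% interval) of the 15 measured genes described as targets, black for the 6 genes and green for 9 others, with diamonds for the value without control 4. Sox11 and Meis1 lie at the upper end and Nuak1 and Efnb3 at the lower end, and most of the other intervals cross zero.

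The families and pathways of the 6 genes were measured in part, since the genes in the table lie almost all on a few chromosomes. Of 19 SOX genes 7 were measured and 0 passed at the brightest probe sets (limma), beside 2.33% of all genes. Sox9, a factor of RPE and glia, read 10.95, 11.06, 10.86 and 11.09 in controls and 11.12, 11.32 and 11.23 in deficient arrays, a log2 difference of 0.24 (adjusted p = 0.351) that passed when its probe sets were averaged (0.33, adjusted p = 0.0461, with 5.86% of genes passing). Sox13 (0.07), Sox17 (0.003), Sox30 (-0.02) and Sox15 (-0.16) were close to level or dim. Meis1 was the only measured gene of 11 of the Meis, Pbx, Pknox and Tgif group.

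Of 22 ephrin and Eph receptor genes 3 were measured and 0 passed, beside 2.33% of all genes. Epha4, a receptor that binds ephrin-B3 among others, read 10.24, 10.37, 10.43 and 10.61 in controls and 10.84, 10.88 and 10.80 in deficient arrays. Its log2 difference was 0.43 (limma adjusted p = 0.107), on the opposite side from Efnb3, and it passed without control 4 (0.49, adjusted p = 0.0207, with 5.18% of genes passing) and as an average of its probe sets (0.55, adjusted p = 0.0371, with 5.86%). Efna2 had -0.09. Of 15 neurotrophin, receptor and adaptor genes 5 were measured and 0 passed, again beside 2.33%. They were Ntrk2, the neurotrophin receptor gene Ngfr (-0.07) and the adaptor genes Frs2 (0.13), Shc2 (0.19) and Shc3 (-0.37). Of 23 BCL2 family genes Bok (-0.06), a pro-apoptotic member, was the other one measured.

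The genes whose brightest probe sets ran most like each of the 6 over the 7 arrays were named by Pearson correlation among 3347 genes at or above the median signal. The arrays share their groups and the same arrays, so these values are a description. Meis1 ran closest to Tns3 (r = 0.99, a tensin of cell-matrix adhesions), Xrcc5 (0.974, a DNA repair subunit) and Usp40 (0.973). Sox11 ran closest to Lypla1 (0.993), Frk (0.991) and Srsf10 (0.986), with 0.956 to 0.975 without control 4. Sox4 ran closest to Mat2b, Dennd1b and Susd4 (0.947 to 0.965), Bcl2 to Crip2, Srp9 and Fkbp1b (0.983 to 0.988), Ntrk2 to Mettl1, Zfp867 and Cnst (0.954 to 0.973) and Efnb3 to Akt2, Ifi207 and Unc5b (0.983 to 0.987). None of these 18 genes passed limma over all genes, which 2.33% of all genes did.

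Levels of markers of other cells are given here beside these results. In such dissected tissue, fewer cells of a type and less RNA per cell cannot be told apart, and the 6 genes are also made by retinal progenitors, neurons, glia and mesenchyme. Of 10 retinal progenitor markers 3 were measured. Their mean log2 signal was 5.82 to 6.50 over control arrays and 6.31 to 7.30 over deficient arrays. Nr2e1, a nuclear receptor gene, rose by 0.69 (limma adjusted p = 0.0155, passed by 2.33% of genes). Neurod4 varied widely, at 4.34 to 6.73 in controls and 5.37 to 8.10 in deficient arrays (1.83, limma adjusted p = 0.325), and Atoh7 had -0.03. Of 18 photoreceptor markers 6 gave 5.38 to 6.29 and 6.12 to 6.67. Of 22 inner retinal neuron markers 3 gave 7.49 to 7.64 and 7.31 to 7.53, a mean over members on opposite sides of zero. Tfap2a, an AP-2 factor gene of amacrine cells, fell by 0.99 (limma adjusted p = 0.047), and its paralog Tfap2b had 0.86 (adjusted p = 0.0938). Of 10 Mueller glia markers 3 gave 9.58 to 10.23 and 10.02 to 10.70. Rcvrn and Atoh7 were below the median of all values in every array, and Rp1, Aipl1 and Lhx1 had both group means below it.

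Among the marker lists, the groups did not overlap for 3, and how often means of other gene lists are so placed was not counted. The RPE markers (6 of 17) had a mean log2 signal of 11.00 to 11.11 in controls and 10.56 to 10.64 in deficient arrays, and Kcnj13, which encodes an inward rectifier potassium channel, fell by 1.19 (limma adjusted p = 0.0051). The 10 measured of 13 fibroblast and scleral markers gave 11.31 to 11.41 and 10.88 to 11.13, with 1 of the 10 differences positive. They were uneven, with Omd at -0.92 and Fmod at -0.60 but Col1a1 (-0.01), Col3a1 (0.01) and Lum (-0.04) close to zero. The 3 measured of 8 melanocyte and Schwann cell markers gave 8.83 to 9.26 and 8.33 to 8.47. The 5 measured of 13 melanin and melanosome markers gave 9.89 to 10.31 and 9.42 to 9.93, with all 5 differences negative and a median of -0.60, none of them past limma. Lens markers (7 of 15) varied widely, at 5.91 to 7.61 and 6.88 to 8.54. The ranges overlapped for the macrophage (2 of 10, 8.99 to 9.35 and 8.83 to 9.14), extraocular muscle (7 of 10, 8.48 to 8.86 and 8.38 to 9.32), endothelium (Pecam1, 1 of 9, 9.77 to 10.01 and 9.54 to 10.04) and erythrocyte (Slc4a1, 1 of 6, 7.78 to 8.33 and 7.39 to 8.43) lists. The part of these cells in the differences of the 6 genes was not tested.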

How the data were processed

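The deposited values are log2 signals of 7 arrays in 1 table. RMA (robust multi-array average) and Partek 6.6 are named in the submitters' processing notes, with no roles. The scale was inferred from the range, 2.71 to 13.5, and the arrays did not share 1 distribution (control 4 had a lower median). Build, filters and probe alignment: not given in the sources used here. Total RNA was extracted with a miRNeasy kit and labelled with biotin, per the labels' protocols. Depth has no meaning for arrays, and their number limits the precision.

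By platform annotation 53644 probe sets had 1 gene symbol, 877 several, and 11014 are unnamed here. Symbols were updated with RefSeq's mouse gene table (4321 current, 698 updated, 13 unmatched). A gene was represented by its brightest probe set over the 7 arrays. Groups were compared with limma (lmFit, eBayes, two-sided tests, adjusted by Benjamini-Hochberg over every gene or probe set, threshold 0.05; 2.82 prior and 5 residual degrees of freedom) and diffSplice. Differences are Dicer1-deficient minus control; errors of means are SDs. Code was tested on simulated data. The members, lists and tests were chosen with earlier results of these data known. Named are the 6 genes, their probe sets that passed, genes of the target and pathway lists past the threshold or with the smallest p (up to 4 per list), and the 3 genes most like each; other probe sets, list genes and the marker genes named were chosen after their values were seen. Alternatives were other summaries, normalizations, filters on dim genes, variance models, array weights, a threshold of 0.1 and leaving out each array; the mean without control 4 and the test against the gene mean were added after seeing the data. R 4.3.3, limma 3.58.1, Python 3.11.15, pandas 2.3.3 and matplotlib 3.10.9 were used.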

Additional observations from a re-analysis of the deposited data

Results flagged for a closer look

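For the 6 genes, 77 sets of 4 control values were tested (brightest probe set, mean of probe sets and each other probe set). By Dixon's criterion 8 had 1 control far from the other 3, and 5 of the 8 were control 4. The criterion flags about 1 in 20 sets of independent normal values. These sets share the same 4 arrays and overlap, so that rate does not apply, and the share over all probe sets was not counted. Over all probe sets, control 4 was below the other controls at 40.7% and above them at 35.2%. Control 4 was far below the others for Sox11 at its brightest probe set (8.26), on the mean of its probe sets (6.03) and at probe set 10399731 (4.86), for Meis1 at probe set 10384506 (5.29) and for Sox4 at probe set 10408451 (7.33). Control 3 was far above the others for Meis1 at probe set 10384513 (6.61), the 1 probe set that passed over all arrays, and for Efnb3 at probe set 10387486 (5.63). Control 1 was far above the others for Ntrk2 at probe set 10405659 (3.89).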

How the results depend on the processing

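Of 17 alternatives, Sox4 kept its direction and stayed short of the limma threshold in all (0.19 to 0.37), and Meis1 (0.45 to 1.10), Sox11 (0.49 to 1.21), Bcl2 (-0.48 to -0.05) and Efnb3 (-0.62 to -0.09, the last on the median of probe sets) kept their direction in all but varied widely in size. Ntrk2 reversed to 0.0198 without deficient array 1, and ran from -0.18 to 0.0198 with 1 array left out. The counts over all 5017 genes, the 6 genes and the 15 listed targets (117, 0 and 0) were 294, 1 and 2 with probe sets averaged (Meis1 0.54), 176, 1 and 1 on their median (Meis1 1.10), 385, 3 and 4 with array weights (Meis1 0.57, Sox11 0.79, Efnb3 -0.55), 213, 1 and 1 at a threshold of 0.1, and 853, 4 and 7 on the mean without control 4 (Meis1 0.45, Sox11 0.49, Bcl2 -0.25, Efnb3 -0.29). A mean-variance trend called 1 of the 6 genes and 1 of the 15 (Meis1 0.63, limma adjusted p = 0.0412). With 1 array left out the counts ran from 33 to 260, 0 to 1 and 0 to 2. Sox11 ran from 0.76 to 1.21, and the 260 genes and its call (0.76) came without control 4. The cause of these shifts was not tested. Of the 71 probe sets (1 called), 2 were called after quantile normalization, 5 with array weights and 2 at a threshold of 0.1, and 0 to 3 with 1 array left out. Genes called uneven by diffSplice (0) were 1 with array weights and 0 to 1 with 1 array left out; diffSplice has no option for a mean-variance trend, which was not run. No paired analysis was possible because the labels give the arrays no replicate numbers that pair them. Signals below the median were not shown to be above background, which limits their folds.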
